A study of Mus musculus with 4 samples.

Results

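Fc receptors bind the constant end of antibodies and thereby couple the antibody response to myeloid cells. The 8 genes described here were taken by symbol from the 55450 genes of the matrix: Fcgr1, Fcgr2b, Fcgr3 and Fcgr4 encode the receptors for IgG, Fcer1g the signalling chain that most of them share, Fcer1a and Ms4a2 the alpha and beta chains of the high-affinity IgE receptor, and Fcgrt the heavy chain of the neonatal Fc receptor FcRn. All 8 were found once each, and 6 of them gave enough UMIs to be compared between myeloid cell types. A UMI (unique molecular identifier) marks 1 captured transcript molecule.

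The cells came from tumours of 4T1, a mouse mammary carcinoma line, of which 1000000 cells were placed in the right flank of female BALB/c mice aged 6 to 8 weeks. Mice were injected on day 7 with PBS or with TIOs (macrophages loaded with light-converting particles and then frozen), received 980 nm light for 5 min at 1.0 W per square cm on days 8, 9 and 10, and were sorted for CD45 from tumours taken on day 13. Of 4 samples, 2 are PBS, 1 is TIOs+NIR3, and 1 carries a title and a protocol that name different treatments and was placed in no group. The cell barcodes carry 4 suffixes that no source used here links to a sample, so the 4 libraries are shown one by one as samples of unknown treatment, and no treatment was compared.

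A barcode was kept with at least 300 genes and at most 15% mitochondrial UMIs, which left 32133 of 33064. Of these, 27684 (86.2%) passed a gate on the marker genes of 1 of 16 cell types, and 4825 cells lay within 0.05 of a gate limit. None of the 8 Fc receptor genes was a gate marker. The gates held 9056 neutrophil-like, 3977 monocyte-like and 3448 macrophage-like cells. Library 1 stood apart, with 50.9% tumour-like cells and Ptprc (CD45) UMIs in 37.9% of cells, against 52.2% to 77.4% of cells in the other libraries. Fibroblast-like cells made up 2.40%, 21.4%, 18.7% and 13.3% of libraries 1 to 4, although the cells are described as sorted for CD45. Median UMIs per kept cell were 11698, 2642, 2695 and 7182 in libraries 1 to 4, and 101 barcodes occurred in 2 libraries. Levels are given as CPM, the UMIs of a gene for every 1000000 UMIs of a gate, with exact Poisson 95% intervals that cover counting error only and not the difference between mice. T cell-like cells, which are not known to carry these receptors in quantity, serve as the background. Their median was 4049 UMIs per cell, against 1809 in neutrophil-like cells, so this background in CPM is not one in UMIs per cell.

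In general, Fcgr1, Fcgr3 and Fcgr4 are the activating IgG receptors of the mouse. They signal through the ITAM motif of the Fcer1g chain, whereas Fcgr2b carries an inhibitory ITIM in its own tail and recruits the phosphatase SHIP1 (Inpp5d). The balance between both kinds is known to set the threshold at which antibody-coated targets trigger a myeloid cell. FcRn acts inside endosomes instead, where it returns IgG and albumin to the surface and spares them from breakdown.

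Fcgr2b, Fcgr4, Fcgr3 and Fcer1g lie in this order within 276 kb of chromosome 1 (GRCm38, from 170958617 to 171234365), and Fcer1a lies further along the same chromosome (173221284 to 173227214). Fcgr1 is on chromosome 3 (96282909 to 96293969), Fcgrt on chromosome 7 (45092990 to 45103851) and Ms4a2 on chromosome 19 (11615523 to 11623719). All but Fcgr4 are on the minus strand. An antisense gene overlaps Fcgr2b (Gm38204, 5 UMIs in kept cells) and another overlaps Fcgrt (Gm45669, 67 UMIs). Counting by strand is not stated in the sources used here.

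Fcgr1, which encodes the high-affinity IgG receptor CD64, was highest in monocyte-like cells of every library. Its level there was 458 CPM (95% interval 406 to 515) in library 1, 469 CPM (441 to 498) in library 2, 1015 CPM (980 to 1051) in library 3 and 1390 CPM (1376 to 1405) in library 4. Macrophage-like cells gave 282, 247, 519 and 672 CPM in the same order, and neutrophil-like cells 28.6, 18.0, 75.5 and 134 CPM. The intervals of the 3 gates did not overlap in any library. Libraries 3 and 4 were above libraries 1 and 2 in each of these gates, by up to 7.48-fold between the highest and the lowest library in neutrophil-like cells, 3.04-fold in monocyte-like cells and 2.72-fold in macrophage-like cells. In T cell-like cells Fcgr1 stood at 8.08, 7.61, 6.35 and 54.9 CPM, so library 4 also had the highest background. The part of that background in the order of the libraries was not tested. By count, Fcgr1 gave 537 UMIs in 3199 neutrophil-like cells of library 3 and 486 in 1949 of library 4. In T cell-like cells it was 26.8% of 41 IgG receptor UMIs in 387 cells of library 3. In library 4 it was 41.3% of 121 such UMIs in 152 T cell-like cells.

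The bases just before the start of Fcgr1 are shown as the upstream sequence of the member that varied most between libraries in neutrophil-like cells. PU.1 is a transcription factor of the myeloid lineages, and its core letters GAGGAA were searched on both strands. The window is chr3:96293970-96294219 (GRCm38.p6, minus strand, from RefSeq), and capitals mark the match, which begins 55 bases before the start.
Fcgr1: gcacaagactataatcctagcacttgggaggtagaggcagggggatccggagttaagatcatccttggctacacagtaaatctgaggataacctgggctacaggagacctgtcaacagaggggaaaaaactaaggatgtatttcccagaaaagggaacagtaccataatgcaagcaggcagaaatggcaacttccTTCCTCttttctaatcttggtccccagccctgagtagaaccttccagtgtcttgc
Of 32851 promoter windows of 250 bases, 23.3% held these letters on either strand. Fcgr3 and Fcgr4 also held them, the match beginning 6 or 15 bases before the 2 listed starts of Fcgr3 and 22 bases before that of Fcgr4, while the windows of Fcgr2b, Fcer1g and Fcgrt held none. The Fcgr2b window lay inside the annotated gene, with 203 of its 250 bases in exons, against 0 in the Fcgr1 window, so these 2 windows are not alike. A match is only a string of letters and was not tested for binding.

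Fcgr2b, the inhibitory receptor CD32B, was highest in monocyte-like and macrophage-like cells but ran in another order of libraries. Macrophage-like cells held 512 CPM (95% interval 499 to 525), 859 CPM (837 to 882), 501 CPM (464 to 540) and 354 CPM (341 to 367) in libraries 1 to 4. Monocyte-like cells held 578, 516, 279 and 253 CPM. Type 2 dendritic cell-like cells came next, at 321, 206 and 151 CPM in libraries 2, 3 and 4. Library 4, the highest for Fcgr1, was thus the lowest for Fcgr2b in macrophage-like and in monocyte-like cells. Neutrophil-like cells held 47.8, 63.7, 27.3 and 56.4 CPM, and T cell-like cells 19.6, 13.9, 5.77 and 20.9 CPM. By count, Fcgr2b gave 67 UMIs in 764 neutrophil-like cells of library 1 and 194 in 3199 of library 3. It was 32.7% of 104 IgG receptor UMIs in 352 T cell-like cells of library 1. In library 3 it was 24.4% of 41 such UMIs in 387 T cell-like cells. Whether neutrophil-like cells exceeded the background in Fcgr2b UMIs per cell was not tested. Macrophage-like cells were above monocyte-like cells in libraries 2, 3 and 4, whereas in library 1, with 116 monocyte-like cells, the fold was 0.885 (95% interval 0.794 to 0.988) and pointed the other way.

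Fcgr3 (CD16) was spread almost evenly over the 3 large myeloid gates. Its level was 528, 465, 363 and 491 CPM in neutrophil-like cells, 596, 630, 490 and 563 CPM in monocyte-like cells, and 612, 694, 500 and 519 CPM in macrophage-like cells of libraries 1 to 4. The highest library exceeded the lowest by 1.46-fold, 1.29-fold and 1.39-fold in these gates, the narrowest spread of the 4 IgG receptor genes. T cell-like cells held 9.82 to 31.8 CPM.

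Fcgr4 (CD16-2), a receptor for IgG2 classes, was likewise shared by neutrophil-like, monocyte-like and macrophage-like cells. Neutrophil-like cells held 247, 146, 177 and 239 CPM, monocyte-like cells 260, 125, 168 and 222 CPM, and macrophage-like cells 353, 125, 158 and 163 CPM. Library 2 was the lowest and library 1 the highest in all 3 gates. The gate with the most Fcgr4 differed between libraries: macrophage-like cells led in library 1, and neutrophil-like cells in libraries 2, 3 and 4. In libraries 3 and 4 the intervals of the leading gate and the next one overlapped.

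Fcer1g was the most abundant member. It reached 3494, 4556, 3295 and 4169 CPM in neutrophil-like cells, 3657, 3230, 3660 and 4397 CPM in monocyte-like cells and 2698, 2880, 3703 and 4226 CPM in macrophage-like cells. Type 2 dendritic cell-like cells held 1893, 2307 and 2819 CPM in libraries 2, 3 and 4, and type 1 dendritic cell-like cells 365 to 842 CPM. These are 3' UMI counts, which are not scaled by transcript length, and the capture of different genes may not be equal.

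Natural killer cells are known to use CD16 for antibody-dependent killing, so their values are set apart. Natural killer cell-like cells held 1078, 1247 and 1406 CPM of Fcer1g in libraries 1, 3 and 4, against 134, 49.7 and 251 CPM in T cell-like cells, with intervals that did not overlap. Their Fcgr3 level was 32.2 CPM (95% interval 15.4 to 59.2), 27.2 CPM (8.84 to 63.5) and 46.5 CPM (32.4 to 64.7). In T cell-like cells Fcgr3 stood at 19.0 CPM (13.1 to 26.7), 9.82 CPM (5.72 to 15.7) and 31.8 CPM (21.3 to 45.7), and the intervals overlapped in each of these libraries. The Fcgr3 point values of natural killer cell-like cells were above those of T cell-like cells in each of these libraries. With 52, 31 and 127 cells, the counts of single libraries did not settle whether Fcgr3 exceeded the background, whereas Fcer1g exceeded it in each.

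**Figure D1:**
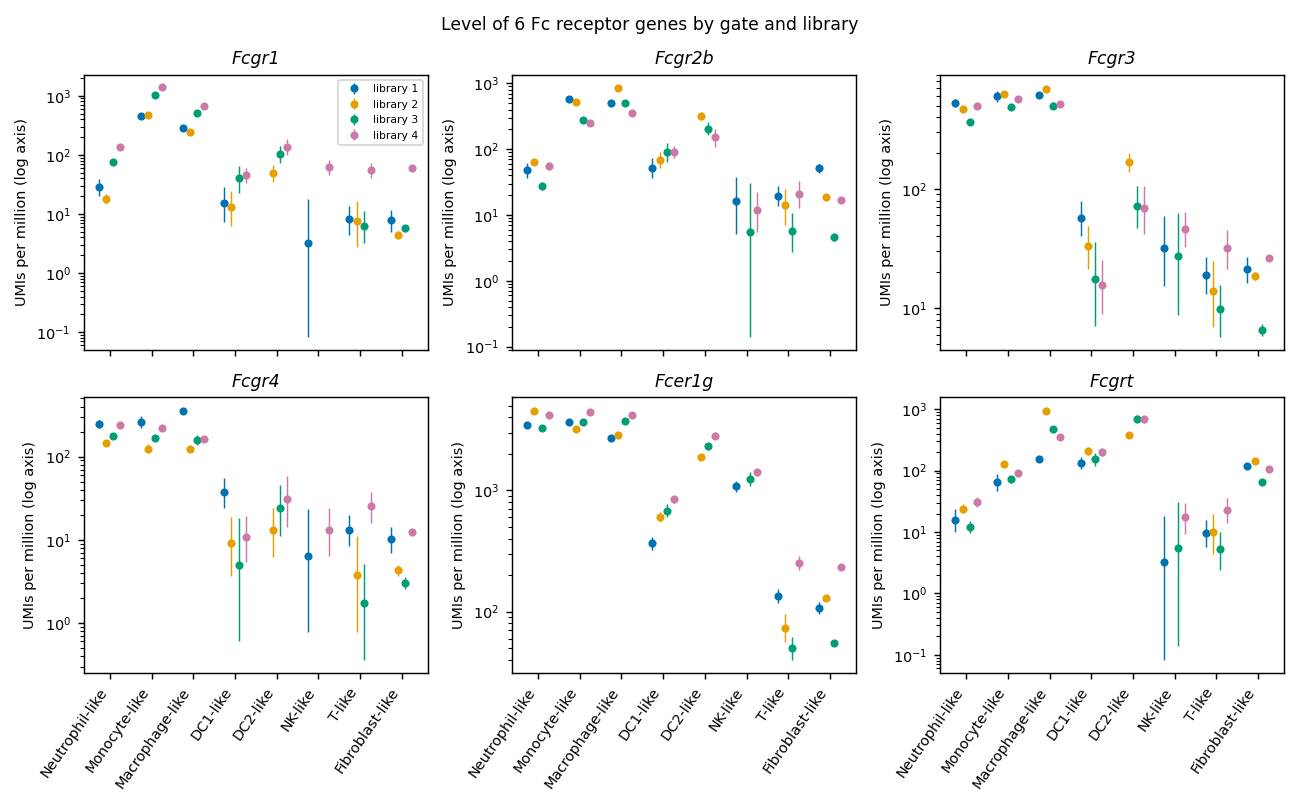
Level of 6 Fc receptor genes (CPM, log axis) in 8 gates of at least 20 cells, with 1 point per library and exact Poisson 95% intervals; points at 0 are not drawn. Fcgr1 and Fcgr2b separate monocyte-like and macrophage-like cells from neutrophil-like cells, whereas Fcgr3, Fcgr4 and Fcer1g sit at like heights in all 3 gates.

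Fold changes between gates were computed inside each library, so that both gates come from the same library. A gene was called when it differed by over 2-fold in the same direction in each of the 4 libraries, with at least 50 cells in both gates and at least 20 UMIs in all. No p-value was computed, because the libraries are not known replicates. Macrophage-like cells exceeded neutrophil-like cells in 3 of the 6 tested members, beside a background of 23.3% of 14869 genes called in that direction. No member was called lower, beside 7.00% of all genes. The median gene was 0.73 higher in macrophage-like cells on the log2 scale, and the members are read against that shift.

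By median log2 ratio Fcgrt differed most between these gates, although Fcgr2b had the larger fold in library 1. Fcgrt was 9.98-fold (95% interval 6.58 to 16.0), 39.6-fold (33.6 to 47.0), 38.5-fold (30.8 to 48.8) and 11.4-fold (9.44 to 13.9) higher in macrophage-like cells of libraries 1 to 4. Fcgr2b was 10.7, 13.5, 18.4 and 6.27-fold higher, and Fcgr1 was 9.86, 13.8, 6.87 and 5.00-fold higher. The median log2 ratios of these genes were 4.39, 3.59 and 3.04, each above that of the median gene. Fcgr3, Fcer1g and Fcgr4 had median log2 ratios of 0.34, −0.18 and −0.19, each below it. For Fcgr4 the direction changed between libraries, from 1.43-fold in library 1 to 0.680-fold in library 4, and for Fcer1g from 0.632-fold in library 2 to 1.12-fold in library 3.

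**Figure D2:**
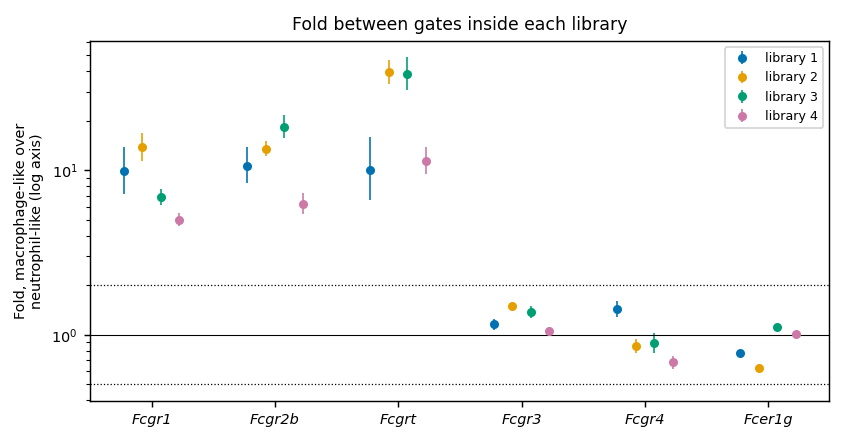
Fold of 6 Fc receptor genes in macrophage-like over neutrophil-like cells (log axis), with 1 point per library and 95% conditional binomial intervals; the solid line marks equal levels and the dotted lines 2-fold. Fcgr1, Fcgr2b and Fcgrt lie above the 2-fold line in each library, and Fcgr3, Fcgr4 and Fcer1g between the dotted lines.

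Monocyte-like cells exceeded neutrophil-like cells in the same 3 members, Fcgr1, Fcgr2b and Fcgrt, beside 15.4% of 14745 genes called higher. None was called lower, beside 5.60% of all genes, and the median gene was 0.55 higher on the log2 scale. Fcgr1 gave the widest gap of these, at 16.0, 26.1, 13.4 and 10.3-fold in libraries 1 to 4. Fcgr2b was 12.1, 8.11, 10.2 and 4.48-fold higher, and Fcgrt 4.19, 5.43, 5.96 and 3.03-fold higher.

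Between macrophage-like and monocyte-like cells Fcgr3, Fcgr4 and Fcer1g were close, with folds of 0.732 to 1.36, and Fcgr2b had folds of 0.885 to 1.79. Only Fcgrt of the 6 tested members was called higher in macrophage-like cells, at 2.38, 7.30, 6.47 and 3.76-fold, beside 2.48% of 15096 genes. None was called lower, beside 1.32% of all genes, and the median gene was 0.14 higher on the log2 scale. Fcgr1 came near that limit, with folds of 0.615, 0.527, 0.511 and 0.483 in libraries 1 to 4, and was lower in macrophage-like cells of each library. Each cell was placed in 1 gate only. An alternative run removed cells that also scored for a second cell type, most macrophage-like cells among them. Without such cells, 370, 96, 64 and 105 of 1146, 1045, 262 and 995 macrophage-like cells remained in libraries 1 to 4. Of 116, 368, 452 and 3041 monocyte-like cells, 56, 84, 192 and 937 remained. The Fcgrt fold in library 1 was then 1.94 and its call was lost, with 3.98-fold to 11.3-fold in the other libraries.

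Against T cell-like cells, all 6 tested members were higher in macrophage-like cells, beside 9.89% of 14252 genes. None was lower, beside 8.81% of all genes, and the median gene had a log2 ratio of −0.23. The smallest fold in any library was 6.44, for Fcgr4 in library 4. This comparison gives the distance of the members from the background.

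The make-up of the IgG receptor message differed between gates and between libraries. Among the UMIs of the 4 IgG receptor genes, Fcgr2b made up 5.62%, 9.19%, 4.24% and 6.12% in neutrophil-like cells of libraries 1 to 4. In monocyte-like cells its share was 30.5% (exact binomial 95% interval 27.9 to 33.3), 29.7% (28.2 to 31.1), 14.3% (13.4 to 15.2) and 10.4% (10.2 to 10.7). In macrophage-like cells it was 29.1% (28.5 to 29.7), 44.6% (43.7 to 45.5), 29.9% (28.0 to 31.8) and 20.7% (20.1 to 21.4). Of these 3 gates, neutrophil-like cells had the smallest inhibitory share in every library. Monocyte-like cells of libraries 1 and 2 held larger shares than those of libraries 3 and 4.

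The remainder was divided differently among the activating receptors of each gate. In neutrophil-like cells Fcgr3 made up 53.3% to 67.1% and Fcgr4 21.1% to 29.0% of the IgG receptor UMIs, and Fcgr1 2.59% to 14.6%. In monocyte-like cells Fcgr1 made up 24.2%, 27.0%, 52.0% and 57.3% in libraries 1 to 4, and was thus the leading IgG receptor gene in libraries 3 and 4 only. In macrophage-like cells Fcgr1 made up 16.0%, 12.8%, 30.9% and 39.3%. The summed level of the 4 genes moved less, from 1741 to 2428 CPM in monocyte-like cells and from 1678 to 1926 CPM in macrophage-like cells, and was 643 to 922 CPM in neutrophil-like cells.

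**Figure D3:**
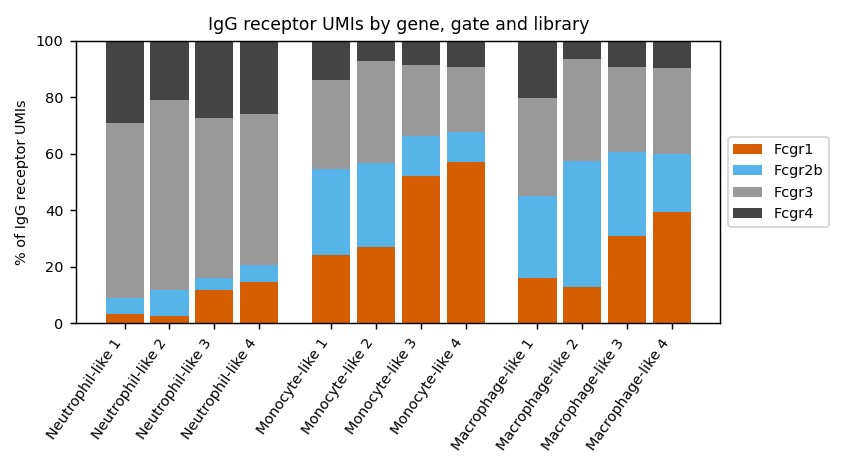
Share of the UMIs of the 4 IgG receptor genes (stacked, % of their sum) in neutrophil-like, monocyte-like and macrophage-like cells, with 1 bar for each of libraries 1 to 4. The Fcgr2b segment is 4.24% to 9.19% in neutrophil-like cells, and the Fcgr1 segment is larger in libraries 3 and 4 than in libraries 1 and 2 in each gate.

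Dendritic cell gates held less IgG receptor message, and the inhibitory part of it differed between them. Type 2 dendritic cell-like cells held 551, 406 and 389 CPM of the 4 genes in libraries 2, 3 and 4, of which Fcgr2b was 58.3% (95% interval 53.4 to 63.0), 50.7% (42.4 to 58.9) and 38.9% (29.9 to 48.6). Library 1 had 7 such cells and is left out. Type 1 dendritic cell-like cells held 124 to 163 CPM, with an Fcgr2b share of 32.4%, 55.3%, 59.0% and 55.8% in libraries 1 to 4. In libraries 2 to 4 this share exceeded that of macrophage-like cells in both gates, although the intervals overlapped for type 1 dendritic cell-like cells of library 2 (44.7 to 65.6), as they did in library 1 (23.6 to 42.2). Mature dendritic cell-like cells of library 3, the largest dendritic gate of any library with 202 cells, held 46.6 CPM and an Fcgr2b share of 25.3% (16.4 to 36.0), against 29.9% in macrophage-like cells. Plasmacytoid dendritic cell-like cells of library 4 (118 cells) held 319 CPM and a share of 24.7% (19.6 to 30.4), against 20.7% in macrophage-like cells, and in both of these cases the intervals overlapped. In library 2, with 31 plasmacytoid dendritic cell-like cells and 28 UMIs of the 4 genes, the Fcgr2b share was 53.6% (33.9 to 72.5). Fcgr1 made up 0% of the UMIs of this gate in library 2 and 43.7% in library 4, beside 41.3% in T cell-like cells of library 4. Libraries 1 and 3 held 7 and 4 such UMIs, too few to describe. T cell-like cells, the background, held 60.0, 39.3, 23.7 and 133 CPM of the 4 genes in libraries 1 to 4. In library 4 this stood beside 163 CPM in type 1 dendritic cell-like cells. The counts were 165 UMIs in 70 type 1 dendritic cell-like cells and 121 UMIs in 152 T cell-like cells. In library 3 the Fcgr2b share of T cell-like cells was 24.4% (12.4 to 40.3), near that of mature dendritic cell-like cells.

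Fibroblast-like cells, which are not leucocytes, also held UMIs of these genes. They held 90.3, 45.9, 19.9 and 116 CPM of the 4 IgG receptor genes in libraries 1 to 4, against 60.0, 39.3, 23.7 and 133 CPM in T cell-like cells. These gates differ in depth, with median UMIs per cell of 26281 and 4049. By count, fibroblast-like cells held 276, 1781, 874 and 5016 of these UMIs in 188, 1846, 1267 and 1182 cells. T cell-like cells held 104, 31, 41 and 121 in 352, 72, 387 and 152 cells, fewer per cell in each library. In library 4, Fcgr1 was 51.5% of these UMIs in fibroblast-like cells and 57.3% in monocyte-like cells, the largest gate there. In library 1, Fcgr2b was 56.5% of them (95% interval 50.4 to 62.5) in 188 fibroblast-like cells, above the 29.1% in macrophage-like cells, the 32.7% in T cell-like cells and the 29.1% in tumour-like cells of that library. Fcgr2b is also a known B cell receptor, but the B cell-like gate held 25 cells and 4 Fcgr2b UMIs, too few to describe.

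For detection per cell, cells with under 1000 UMIs were left out. In the neutrophil-like gate these were 613 of 9056 cells, among them 144 of 764 in library 1. Other gates lost cells too. Of 1146, 1045, 262 and 995 macrophage-like cells, 1072, 998, 240 and 970 were kept in libraries 1 to 4. Each other cell was thinned to 1000 UMIs. At that depth a UMI of any of the 4 IgG receptor genes was found in 41.7% to 55.9% of neutrophil-like cells, 76.5% to 83.9% of monocyte-like cells and 69.6% to 81.6% of macrophage-like cells. The same share was 2.62% to 6.00% in T cell-like cells. Before thinning, the median UMIs per cell were 1809, 7954 and 7217 in the 3 myeloid gates and 4049 in T cell-like cells.

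Fcer1g is needed at the surface by the activating receptors, and its UMIs were found in most cells whether or not an activating receptor was detected. Among macrophage-like cells with a UMI of Fcgr1, Fcgr3 or Fcgr4, 91.0%, 90.3%, 93.0% and 94.8% also held Fcer1g in libraries 1 to 4. Among those without, the share was 88.4%, 84.1%, 85.6% and 93.8%. In libraries 1, 3 and 4 the exact intervals of both shares overlapped. In neutrophil-like cells the shares were 94.1% to 96.6% with and 89.6% to 96.4% without. Their intervals overlapped in libraries 1 and 4, but not in libraries 2 and 3, where the share was higher with an activating receptor UMI. In monocyte-like cells the shares were 93.2%, 92.7%, 95.3% and 97.7% with and 90.5%, 90.7%, 95.6% and 93.5% without, and the intervals did not overlap in library 4 only. Fcgr2b UMIs were found in 40.5%, 55.2%, 36.4% and 33.0% of macrophage-like cells with an activating receptor UMI, and in 31.0%, 51.3%, 24.7% and 22.6% of those without. Inhibitory and activating receptor transcripts thus occurred under the same barcodes, and doublets were not removed.

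Fcgrt had a distribution of its own. Macrophage-like cells held 157, 951, 471 and 350 CPM (95% intervals 150 to 164, 928 to 975, 436 to 509 and 338 to 363), a 6.06-fold span between libraries 1 and 2 and the widest of any member in that gate. Monocyte-like cells held 65.9, 130, 72.9 and 93.0 CPM, and neutrophil-like cells 15.7, 24.0, 12.2 and 30.7 CPM. Type 2 dendritic cell-like cells held 384, 706 and 688 CPM in libraries 2, 3 and 4, above macrophage-like cells in libraries 3 and 4. Plasmacytoid dendritic cell-like cells held 309 CPM in library 3 (22 cells) and 240 CPM in library 4 (118 cells). Type 1 dendritic cell-like cells held 135 CPM in library 1 (51 cells) and 210 CPM in library 2 (54 cells). These values lay above those of monocyte-like and fibroblast-like cells in the same libraries. T cell-like cells held 5.20 to 23.1 CPM.

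Fcgrt was also above the background in stromal cells, where FcRn is known to be made. Fibroblast-like cells held 117, 143, 65.2 and 105 CPM and endothelial-like cells 86.8, 81.2, 91.5 and 76.5 CPM in libraries 1 to 4. The endothelial-like values come from 59, 187, 45 and only 17 cells. With a median of 26281 UMIs per cell, fibroblast-like cells held 36.7% of all Fcgrt UMIs. B2m, the light chain of FcRn and of MHC class I, was not called between macrophage-like and neutrophil-like cells, with a median log2 ratio of 0.97.

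Inside the macrophage-like gate, Fcgrt and Fcgr2b were higher in cells with a UMI of Cd163, the haemoglobin scavenger receptor and itself a gate marker. In libraries 2, 3 and 4, with 545, 119 and 436 such cells, Fcgrt was 1268 against 576 CPM, 638 against 334 CPM and 516 against 225 CPM in cells with and without a Cd163 UMI. These are folds of 2.20 (95% interval 2.08 to 2.33), 1.91 (1.63 to 2.25) and 2.29 (2.13 to 2.47). Fcgr2b was 1.55, 1.67 and 1.60-fold higher, and Fcgr1 went the other way at 0.770, 0.624 and 0.691-fold. Median UMIs per cell were 5472 and 5175, 4028 and 4919, and 7603 and 8222 in cells with and without, with no common direction. The part of depth in the Cd163 split was not tested. Library 1 was not split, because under 50 of its cells lay on 1 side.

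**Figure D4:**
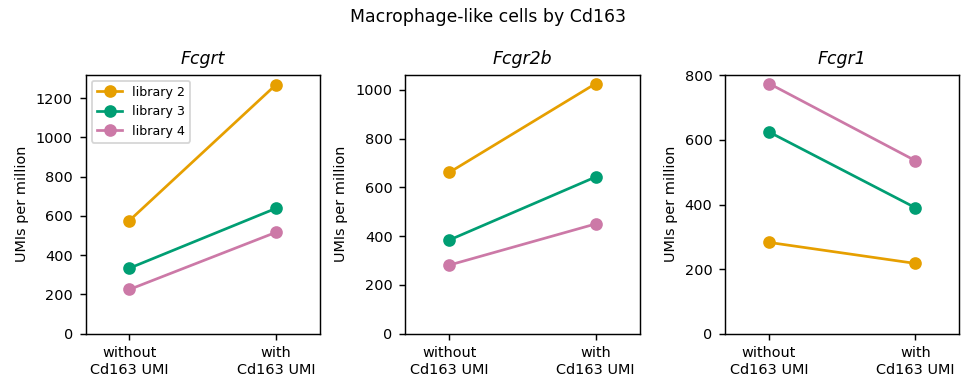
Level of Fcgrt, Fcgr2b and Fcgr1 (CPM) in macrophage-like cells without and with a UMI of Cd163, with 1 line for each of libraries 2, 3 and 4. The lines go up for Fcgrt and Fcgr2b and down for Fcgr1 in each of these libraries.

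A split by Arg1 (arginase 1) gave a different picture by library. Fcgrt was 670 CPM in cells with and 1423 CPM in cells without an Arg1 UMI in library 2 (fold 0.471, 95% interval 0.448 to 0.495), and 381 and 685 CPM in library 3. In library 1 it was 156 and 158 CPM, and in library 4 it was 337 and 386 CPM (fold 0.873, 0.807 to 0.945). Fcgr2b had folds of 1.17, 0.707, 0.793 and 1.01 in libraries 1 to 4. The folds of Fcgr1, Fcgr3, Fcgr4 and Fcer1g lay between 0.874 and 1.49. Cells with an Arg1 UMI were also deeper, with median UMIs of 6148 against 4350 in library 2, and the part of depth in this split was not tested. A split by H2-Ab1, an MHC class II gene, moved no member by more than 1.34-fold in libraries 2, 3 and 4.

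In neutrophil-like cells the members were split by Cd274, which encodes the checkpoint ligand PD-L1. Fcgr1 was 1.43-fold (95% interval 0.730 to 2.85), 1.95-fold (1.31 to 2.96), 1.93-fold (1.62 to 2.31) and 1.71-fold (1.39 to 2.09) higher in cells with a Cd274 UMI, an interval that held 1 in library 1 only. Fcgr2b was 1.47, 1.25, 1.16 and 1.85-fold higher in libraries 1 to 4, with intervals above 1 in libraries 2 and 4 (1.02 to 1.53 and 1.35 to 2.52). Fcgr3 was 1.09-fold to 1.29-fold higher. Fcgr4 had no common direction, at 0.793-fold in library 2 and 1.22-fold to 1.46-fold in the others. Cells with a Cd274 UMI were also deeper, with median UMIs of 1710 against 1447, 1924 against 1691, 2117 against 1852 and 1844 against 1702 in libraries 1 to 4. The part of depth in this split was not tested. A split by Retnlg, a neutrophil granule gene and itself a gate marker, moved Fcgr1, Fcgr2b, Fcgr3 and Fcgr4 by 0.790-fold to 1.21-fold. In monocyte-like cells, a split by Chil3, also a gate marker, moved Fcgr1 by 1.10, 1.56 and 1.04-fold in libraries 2, 3 and 4.

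The IgE receptor chains were found mainly in few cells. Fcer1a gave 316 UMIs in all kept cells, of which 72.8% (95% interval 67.5 to 77.6) lay in 27 mast cell-like cells. It was found in 24 of these (88.9%, 70.8 to 97.6) and in 21 of 61 basophil-like cells (34.4%, 22.7 to 47.7). Mast cell-like cells held 1949 CPM and basophil-like cells 178 CPM. Ms4a2 gave 109 UMIs, at 314 CPM in mast cell-like and 254 CPM in basophil-like cells, whose intervals overlapped. In 3448 macrophage-like cells both were at 0 UMIs, where 3 counts would have been 0.105 CPM, and neutrophil-like cells held 3 UMIs of each.

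By library, mast cell-like cells numbered 8, 10, 6 and 3, and their Fcer1a level was 1891, 2193, 1670 and 2051 CPM. Basophil-like cells numbered 14, 14, 12 and 21, and gave 87.5, 120, 124 and 286 CPM. Mast cell-like cells were above basophil-like cells in each library, with intervals that did not overlap. Fcer1g, the third chain of the IgE receptor, was present in both, at 2763 CPM in mast cell-like and 1954 CPM in basophil-like cells of all libraries together. Basophil-like cells also held Fcgr3, at 306, 300, 321 and 234 CPM in libraries 1 to 4, whereas mast cell-like cells held 6 Fcgr3 UMIs in all.

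The windows before the starts of Fcer1a and Ms4a2 are shown because both genes were found in the same pair of rare gates. Transcription factors of the GATA family are known regulators of mast cells and basophils, and AGATAA was searched on both strands together with the PU.1 letters. Capitals mark the matches, at chr1:173227230-173227479 and chr19:11623720-11623969 (GRCm38.p6, both on the minus strand, from RefSeq).
Fcer1a: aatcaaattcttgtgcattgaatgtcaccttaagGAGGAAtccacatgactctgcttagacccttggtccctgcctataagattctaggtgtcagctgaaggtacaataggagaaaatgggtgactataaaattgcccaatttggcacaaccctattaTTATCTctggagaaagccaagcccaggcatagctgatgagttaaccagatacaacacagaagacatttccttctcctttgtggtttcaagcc
Ms4a2: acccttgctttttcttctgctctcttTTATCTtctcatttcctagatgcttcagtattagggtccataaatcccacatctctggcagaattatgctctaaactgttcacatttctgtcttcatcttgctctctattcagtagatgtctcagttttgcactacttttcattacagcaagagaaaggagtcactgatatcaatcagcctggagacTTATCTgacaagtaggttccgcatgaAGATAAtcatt
Fcer1a held a GATA match beginning 92 bases before its start and a PU.1 match at 216 bases. Ms4a2 held GATA matches at 224, 37 and 11 bases before its start. No other member's window held the GATA letters, which occurred in 9.99% of the 32851 windows. All 8 members had a window, and the matches are descriptions of sequence only.

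The 33 listed pathway genes are signalling genes, inhibitory phosphatases, adaptor chains, partners of Fcgrt and other receptors for antibody. Of these, 27 could be tested between macrophage-like and neutrophil-like cells. The median log2 ratio over this mixed list was −0.07 beside 0.73 for all genes. Higher in macrophage-like cells were Fyn (a Src-family kinase), Lat2 (an adaptor, 11.8-fold to 17.5-fold), Dok1 (an inhibitory adaptor) and Fcrls (an Fc receptor-like gene). Lower were the kinases Syk and Fgr, and Fcrl1. Fcrls and Fcrl1 were listed as other receptors for antibody and not as signalling genes. These are 4 higher (14.8%) and 3 lower (11.1%) of 27, beside 23.3% and 7.00% of all genes, so the higher calls were no more frequent than the background. Syk, which binds phosphorylated ITAMs, stood at 162, 338, 296 and 337 CPM in neutrophil-like cells and at 50.4, 117, 122 and 94.3 CPM in macrophage-like cells of libraries 1 to 4. Fgr had log2 ratios from −2.62 to −2.33.

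Fcrls followed macrophage-like cells closely. It held 15.7, 144, 59.7 and 58.1 CPM there, against 1.65, 12.0, 2.93 and 6.23 CPM in monocyte-like cells, and was the only listed gene called higher in macrophage-like than in monocyte-like cells, while Fgr was the only one called lower, beside 2.48% and 1.32% of all genes. Inpp5d, the phosphatase recruited by Fcgr2b, was even across the gates, at 71.1 to 151 CPM in macrophage-like and 85.7 to 167 CPM in neutrophil-like cells. Tyrobp, another ITAM chain, held 1706 to 2465 CPM in macrophage-like and 2773 to 3509 CPM in neutrophil-like cells. Between monocyte-like and neutrophil-like cells Fyn, Lat2, Plcg2, Fcrls and Lgals3 were called higher and Fcrl1 lower, beside 15.4% and 5.60% of all genes. Against T cell-like cells, 9 listed genes were higher in macrophage-like cells (among them Syk, Lyn and Btk) and 4 were lower (Fyn, Lat, Cd247 and Hcst, which T cells are known to use), of 27 tested and beside 9.89% and 8.81% of all genes.

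Across 34 sums of a gate and a library, the genes most like each member were found by Pearson's r of log2(CPM + 10) over 11901 genes with at least 1000 UMIs. The sums share libraries, and these values are descriptions. Fcer1g was most like Tyrobp (0.974), and Fcgr3 most like Lst1 (0.964) and Fcgr4 (0.957). Fcgr4 was likewise most like Lst1 (0.963). Fcgr2b was most like Csf1r (0.954), which encodes the receptor of the macrophage growth factor, and Fcgr1 most like Apobec1 (0.957), C3ar1 (0.953) and Ms4a6d (0.953). Fcgrt had the weakest leading partner, Slc8a1 (0.885), followed by Ap2a2, Gusb and Hexa, the last of which encode lysosomal enzymes.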

How the data were processed

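The authors deposited 1 matrix of whole-number UMI counts per gene and barcode, made with Cell Ranger from 10x libraries of CD45-sorted cells. The version is 6.1.2 in the matrix header, 3.0.2 in the extract protocol and 2.1.1 in the submitters' processing notes, which name the build mm10. The 4 libraries held 69255999 to 108646352 UMIs, 355765099 in all. No suffix could be linked to a sample, so no groups were compared.

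Each cell's gate score was the mean over a type's markers of the log count (per 10000 UMIs), divided by its 0.75 quantile among cells with the gene and limited to 1. A gate needed a score of 0.25 and a lead of 0.1, a rule set on the data. No doublet caller was run. Each cell had 1 gate, and removing cells that also scored for a second type was an alternative. Further alternatives were other cell limits, a stricter gate, thinning to 1000 UMIs, 2 UMIs for detection, other fold and UMI limits, and leaving out each library. Named genes are the 8 members, the listed pathway genes and the 5 genes most like each member. Members and lists were chosen with earlier results of these data known, and the splits of gates by single genes were chosen after their values were seen. Gene positions came from GENCODE vM21. Scripts used Python 3.11.15, numpy 2.4.6, scipy 1.17.1 and pandas 2.3.3, and were tested on simulated data.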

Additional observations from a re-analysis of the deposited data

How the results depend on the processing

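No called result reversed under any alternative run. The counts of 3 members higher in macrophage-like and in monocyte-like than in neutrophil-like cells, and of 6 higher in macrophage-like than in T cell-like cells, were the same under each of them. With cells that also scored for a second type removed, the count of members higher in macrophage-like than in monocyte-like cells was 0. The macrophage over neutrophil median log2 ratios were then 0.13 for Fcgr3, −0.85 for Fcgr4 and −0.23 for Fcer1g. A stricter gate (score 0.3, lead 0.2) gave 1 member lower in macrophage-like than in monocyte-like cells, Fcgr1, as did a fold limit of 1.5. It also gave −0.39 for Fcgr4 and median Fcgr2b shares of IgG receptor UMIs of 4.83%, 20.4% and 31.3% in neutrophil-like, monocyte-like and macrophage-like cells, against 5.87%, 22.0% and 29.5%. Thinning gave −0.26 for Fcer1g and 4.84 for Fcgrt. Leaving out 1 library gave 14.3% to 29.7% for the monocyte share, 14.3% without library 1 or 2 and 29.7% without library 3 or 4. It gave log2 ratios of 0.21 to 0.46 for Fcgr3, −0.37 to 0.020 for Fcer1g, the sign depending on the library left out, and 3.51 to 5.27 for Fcgrt. The causes were not tested. Of the 50-base stretches at transcript ends, 33 of 1467 of Fcgr2b are shared with Fcgr3, and other members share none. Rare gates limit what can be seen: 27 mast cell-like and 25 B cell-like cells.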
